A study of Mus musculus with 6 samples.

Results

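The 7 genes described here, Anks6, Galnt12, Megf9, Acer2, Calr4, Ttc39a and Plk3, lie on the proximal and middle part of mouse chromosome 4, the chromosome that also carries Tdrd7. They were chosen by the size of their measured intensity difference between Tdrd7 null and Tdrd7 heterozygous lenses on these same arrays, so those differences are given as a description and were not tested. They make up 7 of the 8944 named genes measured here. Every probe that the platform's annotation assigns to a listed gene was taken, which gave 10 of the 45281 probes on the array, 3 for Anks6, 2 for Ttc39a and 1 for each of the other genes. Of these, 9 were among the 14902 probes tested, and 1 Anks6 probe was detected on no array. The samples were 6 preparations of mouse lens RNA from postnatal day 30, of which 3 were null for Tdrd7 and 3 heterozygous, each measured on 1 Illumina array, on which the brightness of a probe reports the abundance of 1 transcript. All 6 came from a mix of the C57BL/6J and C3A.Blia strains, and the heterozygous controls carry 1 mutated copy of Tdrd7 themselves. Whether strain variants lie under the probes was not analysed, so brightness differences from probe binding and from abundance were not told apart. The labels do not say which strain's chromosome 4 each mouse carried, so the loss of Tdrd7 and the chromosome segment inherited with its mutated copy cannot be told apart. Nor is it stated whether replicates are separate animals, and the errors and p-values given here cover the spread of these 6 preparations, part of which may be technical. Arrays are numbered in the order of the deposited raw table, heterozygous 1 to 3 and null 4 to 6.

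The lens is a tissue of 2 cell types, a front layer of epithelium and the fibre cells that arise from it and lose their nuclei as they fill with crystallins. The Tudor domain protein made from Tdrd7 is a component of RNA granules in the cytoplasm, and lenses without it are known to develop cataract. The 7 genes have no single pathway in common. Galnt12 encodes a Golgi enzyme that begins mucin-type O-glycosylation by adding N-acetylgalactosamine to proteins, and Acer2 encodes a Golgi alkaline ceramidase that splits ceramide into sphingosine and a fatty acid. Anks6 is an ankyrin repeat protein of the primary cilium, where it binds and activates the kinase Nek8, and Megf9 is a membrane protein with multiple EGF-like domains. Calr4 is a paralogue of calreticulin, the calcium-binding chaperone of the endoplasmic reticulum, and Ttc39a is a tetratricopeptide repeat protein. Plk3 is a polo-like kinase known to be induced by stress and by growth factors.

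In null lenses, 6 of the 7 genes were lower on at least 1 probe and Plk3 was higher. The differences of the 9 tested probes ran from −2.12 for Acer2 to 1.80 for Plk3 on the log2 scale, with a median of −1.38, against 0.01 over all probes tested. Null and heterozygous values did not overlap on 8 of the 9 probes, where 15.3% of all probes tested had no overlap in either direction. Of the 9, 2 were among the probes past an adjusted p of 0.05, 0.181% of all probes. Both counts follow from how the genes were picked. The highest intensity of any of these probes was 737 on the raw scale, far from the brightest signals of the lens crystallins, and all 9 were detected on all 6 arrays. The spread within a group ran from an SD of 0.08 to 0.71 on these probes, against a median of 0.27 over all probes tested.

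**Figure D1:**
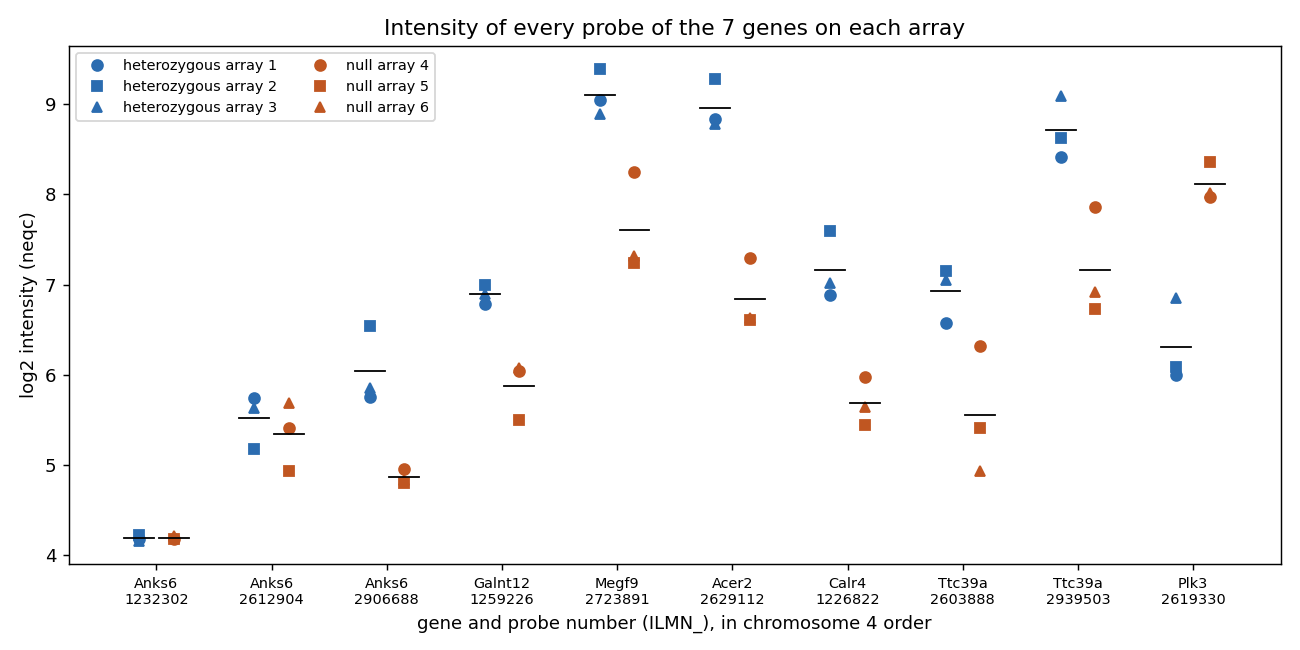
Log2 intensity after background correction and quantile normalization (vertical axis) of all 10 probes of the 7 genes, in chromosome 4 order (horizontal axis). Blue points are the 3 heterozygous and orange points the 3 null arrays, 1 symbol per array, and black bars are group means. Null points lie below all heterozygous points on 7 probes, above them on the Plk3 probe, and among them on 2 of the 3 Anks6 probes, of which the leftmost was detected on no array.

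Acer2 had the largest difference of the genes that were lower. Its log2 intensity was 8.83, 9.28 and 8.78 in the 3 heterozygous samples (arrays 1, 2 and 3) and 7.29, 6.60 and 6.63 in the 3 null samples (arrays 4, 5 and 6). The heterozygous values lay close together, the highest null value was on array 4, and the lowest heterozygous value exceeded it by 1.49. The mean was 8.96 ± 0.28 (SD, n = 3) in heterozygous and 6.84 ± 0.39 (n = 3) in null lenses, a difference of −2.12 ± 0.26 (SE) or 4.36-fold. On the raw scale the Acer2 probe read 640, 402 and 409 in heterozygous and 219, 190 and 146 in null lenses, so the groups were apart before any correction as well.

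Galnt12, the other Golgi enzyme, was at 6.78, 6.996 and 6.90 on the heterozygous arrays and at 6.04, 5.50 and 6.07 on the null arrays. Its heterozygous values were the tightest among the 9 tested probes of the 7 genes (SD 0.11), and null array 5 was the lowest. The means were 6.89 ± 0.11 and 5.87 ± 0.32 (SD, n = 3 each), a difference of −1.02 ± 0.23 (SE) or 2.03-fold. The raw intensities came much closer to each other, with 117 on heterozygous array 2 against 114 on null array 6. The Galnt12 difference was −0.66 with no background correction and −0.67 with arrays scaled to one median without the quantile step, so its size depended on both. Scaling to one median also moved the median difference of all probes from 0.01 to 0.28, so that change was in part common to all probes.

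Megf9 was at 9.05, 9.39 and 8.89 on the heterozygous arrays and at 8.25, 7.24 and 7.32 on the null arrays. Null array 4 stood about 1 unit above the other null arrays, which raised the null SD to 0.56, and still lay 0.64 below the lowest heterozygous value. The difference of the means was −1.51 ± 0.30 (SE), or 2.84-fold. Calr4 was at 6.88, 7.59 and 7.02 on the heterozygous arrays and at 5.98, 5.44 and 5.64 on the null arrays. Array 2 was the highest heterozygous and array 4 the highest null value of Calr4, with a gap of 0.91 between the groups. The Calr4 difference was −1.48 ± 0.26 (SE), or 2.79-fold.

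The 3 probes of Anks6 disagreed. On probe ILMN_2906688 the values were 5.75, 6.54 and 5.85 on the heterozygous and 4.95, 4.803 and 4.84 on the null arrays. The null values were nearly equal and all lay below the heterozygous ones, with a difference of −1.18 ± 0.25 (SE), or 2.27-fold. On probe ILMN_2612904, annotated with the same transcript record, the values were 5.75, 5.18 and 5.63 on the heterozygous and 5.41, 4.93 and 5.68 on the null arrays. These groups overlapped, only 1 of 3 null values lay below all heterozygous values, and the difference was −0.18 ± 0.26. The third probe, ILMN_1232302, annotated with a different transcript record, was not above background on any array and stayed between 4.16 and 4.22. Where the probes lie in the Anks6 transcripts, and whether strain variants lie under them, was not analysed here. Both detected probes were dim, with raw intensities of at most 109 against array medians from 60.5 to 71.3, so a difference in Anks6 was seen on 1 of 2 probes able to show one.

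For Ttc39a both probes were lower in null lenses. On the brighter probe, ILMN_2939503, the values were 8.42, 8.62 and 9.09 on the heterozygous and 7.86, 6.73 and 6.92 on the null arrays, a difference of −1.54 ± 0.32 (SE) or 2.91-fold. On the dimmer probe, ILMN_2603888, they were 6.57, 7.15 and 7.06 against 6.32, 5.41 and 4.93, a difference of −1.38 ± 0.35 or 2.60-fold. Array 4 was the highest null array on both probes, and the groups were apart by only 0.56 and 0.26. They overlapped on both Ttc39a probes in the raw intensities, where heterozygous array 2 read 265 and 125 and null array 4 read 308 and 129, and also after scaling arrays to one median. The separation of the groups for Ttc39a therefore rests on the quantile normalization, while the direction of the means did not change.

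Plk3 was the only gene of the 7 that was higher in null lenses. Its values were 5.99, 6.09 and 6.85 on the heterozygous arrays and 7.98, 8.36 and 8.01 on the null arrays. The null values lay close together, and heterozygous array 3 was the highest of its group and still 1.12 below the lowest null value. The means were 6.31 ± 0.47 and 8.12 ± 0.21 (SD, n = 3 each), a difference of 1.80 ± 0.27 (SE) or 3.49-fold. Raw Plk3 intensities of 124, 85.4 and 144 in heterozygous and 334, 499 and 314 in null lenses showed the same separation.

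Promoter sequences of 5 of the 7 genes were in the RefSeq table for GRCm38.p6, which gives 250 bases before and 50 bases after each annotated start. Those of Acer2 and Megf9, which were lower, and of Plk3, which was higher, are shown 5′ to 3′ because each of these genes has 1 annotated start in the table and the 3 differ in direction. Capitals mark matches on either strand to any of 7 motifs that were searched, namely the TATA box TATAAA, the CCAAT box, the GC box GGGCGG, the E-box CACGTG, the cyclic AMP response element TGACGTCA, the AP-1 site TGAGTCA and the Maf half-site TGCTGAC.
Acer2 promoter, chr4:86874164-86874463, + strand: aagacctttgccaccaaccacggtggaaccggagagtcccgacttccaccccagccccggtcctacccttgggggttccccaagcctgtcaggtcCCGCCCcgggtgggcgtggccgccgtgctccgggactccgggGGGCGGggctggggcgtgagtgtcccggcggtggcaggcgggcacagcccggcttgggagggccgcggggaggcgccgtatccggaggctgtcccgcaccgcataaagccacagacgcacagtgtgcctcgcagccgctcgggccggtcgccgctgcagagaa
Megf9 promoter, chr4:70534879-70535178, - strand: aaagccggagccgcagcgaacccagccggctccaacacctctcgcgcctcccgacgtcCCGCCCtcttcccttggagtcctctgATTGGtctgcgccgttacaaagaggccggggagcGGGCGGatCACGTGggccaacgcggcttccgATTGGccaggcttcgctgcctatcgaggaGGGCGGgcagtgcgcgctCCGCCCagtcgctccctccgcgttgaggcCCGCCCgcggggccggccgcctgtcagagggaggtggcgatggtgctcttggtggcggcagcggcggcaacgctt
Plk3 promoter, chr4:117133914-117134213, - strand: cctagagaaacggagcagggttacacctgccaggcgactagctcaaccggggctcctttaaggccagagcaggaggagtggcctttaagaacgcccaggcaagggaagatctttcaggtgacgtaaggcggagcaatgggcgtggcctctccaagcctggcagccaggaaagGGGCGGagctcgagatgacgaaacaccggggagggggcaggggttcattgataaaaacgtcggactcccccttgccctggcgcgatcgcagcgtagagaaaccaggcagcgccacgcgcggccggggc
The GC box was found 2 times in the Acer2 promoter, 5 times in that of Megf9 and 1 time in that of Plk3, and 35.7% of all 32851 promoters in the table hold it. The Megf9 promoter also held CCAAT 2 times and the E-box 1 time, which 37.4% and 7.15% of all promoters hold. None of the 3 held the TATA box (13.6% of promoters), the cyclic AMP response element (1.79%), the AP-1 site (5.20%) or the Maf half-site (4.67%), and no 2 marked matches overlapped. Ttc39a, with 1 start, held none of the 7 motifs. Of the 4 starts of Calr4, 2 held the Maf half-site, 3 held the CCAAT box and 1 held the AP-1 site. The bases of these promoters were G or C in 73.0% for Acer2, 71.0% for Megf9 and 62.7% for Plk3, against 47.0% for Ttc39a and a median of 52.7% over the table. These are matches of letters only, and the arrays did not measure factor binding.

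Within each group the lower genes shared a pattern over the arrays, and the arrays themselves differed as wholes. Heterozygous array 2 stood apart on the first principal component of all tested probes (42.9% of variance) and null array 5 on the second (31.7%). Array 2 also had the fewest detected probes, 12655 against 14203 to 16204 on the others. Of the 7 probes that were lower without overlap (2 of them of Ttc39a), 6 had their highest null value on array 4. Likewise 6 had their lowest null value on array 5 and 6 had their highest heterozygous value on array 2. The same arrays led among all 1171 probes that were lower without overlap (7.86% of those tested), where array 4 was the highest null in 49.3%, array 5 the lowest null in 49.3% and array 2 the highest heterozygous in 60.3%. Relative to the heterozygous mean, Acer2 was at −1.67 on null array 4 against −2.36 and −2.34 on null arrays 5 and 6, and Megf9 was at −0.86 against −1.87 and −1.79. Tdrd7 itself was at −3.53, −4.39 and −3.84 on null arrays 4, 5 and 6. For correlations each gene was taken by 1 probe, Anks6 by ILMN_2906688 and not by ILMN_2612904, whose difference was −0.18. Deviations from the group means of Acer2 and Megf9 correlated at 0.98 over the 6 arrays. Over the 15 pairs of lower genes the correlation ran from 0.11 for Anks6 and Ttc39a to 0.98, with a median of 0.61. For Plk3 and each of the other genes it ran from −0.49 to 0.20. These correlations come from 6 arrays that share 1 normalization and are given as a description.

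**Figure D2:**
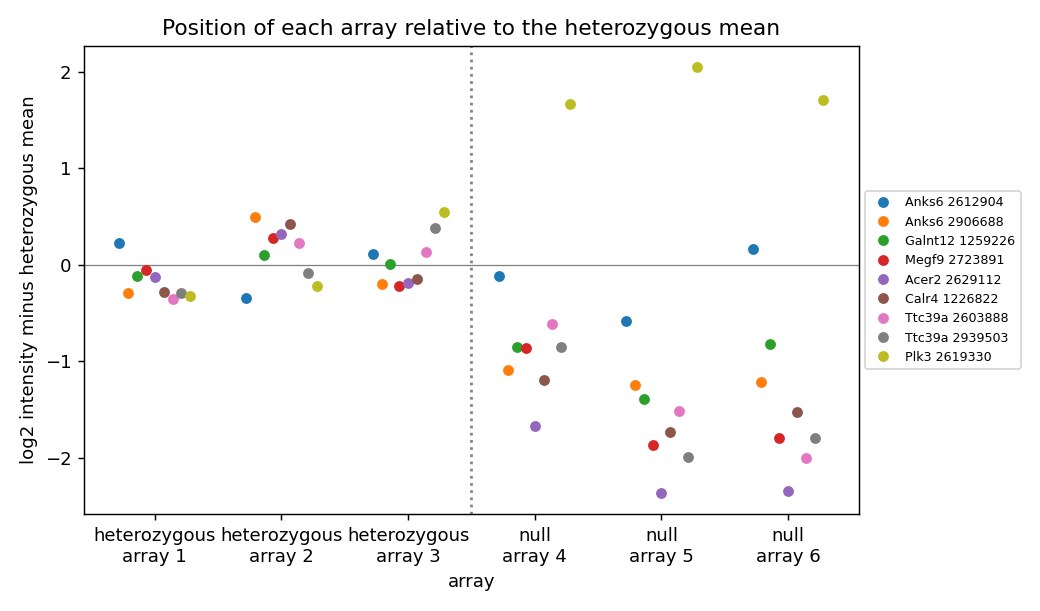
Log2 intensity minus the heterozygous mean (vertical axis) of the 9 tested probes on each of the 6 arrays (horizontal axis), 1 colour per probe. Acer2 lies lowest on all 3 null arrays, the lower genes other than Galnt12 and Anks6 sit clearly higher on null array 4 than on null arrays 5 and 6, and Plk3 lies above 1.6 on all 3 null arrays.

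Markers of other cell types also differed between the arrays, not all in the same way. Of 10 listed leucocyte and macrophage markers 9 were on the array and 6 passed the detection filter. The 9 had a mean log2 intensity of 4.51 to 4.54 across the heterozygous samples, while null arrays 4, 5 and 6 had 5.42, 7.81 and 6.13. Only 1 was detected on all 3 heterozygous arrays, against 6 on all 3 null arrays, so the heterozygous means lay near background. C1qb, C1qc and Lyz2 passed the filter only through the null group, detected in 3 of 3 null samples and 0 of 3 heterozygous ones. Ptprc, the pan-leucocyte antigen CD45, was detected on no array. Markers of the retinal pigment epithelium, iris and ciliary body were at 4.82, 5.25 and 4.76 in heterozygous samples 1, 2 and 3 and at 4.75, 4.48 and 4.63 in null samples 4, 5 and 6, lowest on array 5 and highest on array 2 as most of the lower genes were. Of these 10 pigmented tissue markers, Tyr, Mlana, Rlbp1 and Lrat were detected on no array. Of the 5 tested, 4 were below 0, down to −1.63 for Opn3, and Otx2 was at 0.04. Dct stood out on heterozygous array 2, at 7.34 against 4.98 and 5.58 on arrays 1 and 3. Tyrp1 is itself a gene of chromosome 4 that lies between Megf9 and Acer2. Photoreceptor markers were at 5.02, 6.72 and 6.27 in heterozygous samples 1, 2 and 3 and at 6.91, 6.43 and 6.53 in null samples 4, 5 and 6, with heterozygous array 1 the lowest. All 9 measured photoreceptor markers had a difference above 0 (median 0.63), of which 0 passed in limma. Lens epithelium markers were at 6.83 on heterozygous array 2 and between 8.76 and 9.61 on the other 5 arrays. The part of these cell types in the differences of the 7 genes was not tested, and in whole lens RNA fewer cells of a type and less RNA per cell cannot be told apart. Lens fibre markers, all 9 of those on the array, were detected on all 6 arrays, at a mean of 14.69 to 14.73 in heterozygous and 14.52 to 14.66 in null lenses.

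Along chromosome 4 the genes came in the order Tdrd7, Anks6, Galnt12, Megf9, Acer2, Calr4, Ttc39a and Plk3 in the RefSeq table for GRCm38.p6. Anks6 and Galnt12 are direct neighbours, with 14 protein-coding genes between Tdrd7 and Anks6, and Calr4 and Ttc39a are separated only by Eps15, which encodes an endocytic adaptor. Between the other neighbours in this order lay 133 protein-coding genes from Galnt12 to Megf9, 41 from Megf9 to Acer2, 160 from Acer2 to Calr4 and 77 from Ttc39a to Plk3. The Tdrd7 probe, which checks the labels, was at 14.05, 13.72 and 14.16 in heterozygous and 10.44, 9.59 and 10.13 in null lenses, a fall of 15.1-fold (limma, adjusted p = 0.00118).

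Few of the genes between the 7 differed as much as they did, which follows from how the 7 were picked. Of the 161 other tested genes from Anks6 to Plk3, each taken by its brightest probe, 0 passed an adjusted p of 0.05 in limma, where 0.212% of all 8944 tested genes did, and 18 had an unadjusted p under 0.05, 10 lower and 8 higher. Their median difference was −0.01, with 81 below and 80 above 0, against a median of 0.02 over all genes. The 161 leave out the 7 genes, of which Acer2 and Plk3 passed in limma, while the shares of all genes include them. The count of 0 therefore describes only the genes left after this removal and is no rate for the stretch. With the same limit, 11.2% had an unadjusted p under 0.05, against 9.17% of all genes. A difference of more than 1 in size was seen in 3 lower and 1 higher of the 161 genes. This share was 2.48%, against 2.82% of all tested genes. The latter includes the 7 genes, each past 1 in size on the probe taken for it, so these shares are not of like sets. Array weights called 266 of all 14902 probes tested and the fit without heterozygous array 2 and null array 5 called 111. The main fit called 27. Of the 161 genes, these alternatives called 3 and 2 in that order, and no other setting called any. These genes, named after their values were seen, were Alad, a haem synthesis enzyme (−1.50 and −1.50, against −1.11 over all arrays without weights), Rab3b, a small GTPase of secretory vesicles (1.22 and 1.40, against 1.11), and, with weights only, Cdkn2c, a cell cycle inhibitor (−1.16, against −1.48, a size like that of Calr4). The 8 tested genes between Tdrd7 and Anks6 had a median difference of −0.24, with 0 at an unadjusted p under 0.05.

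**Figure D3:**
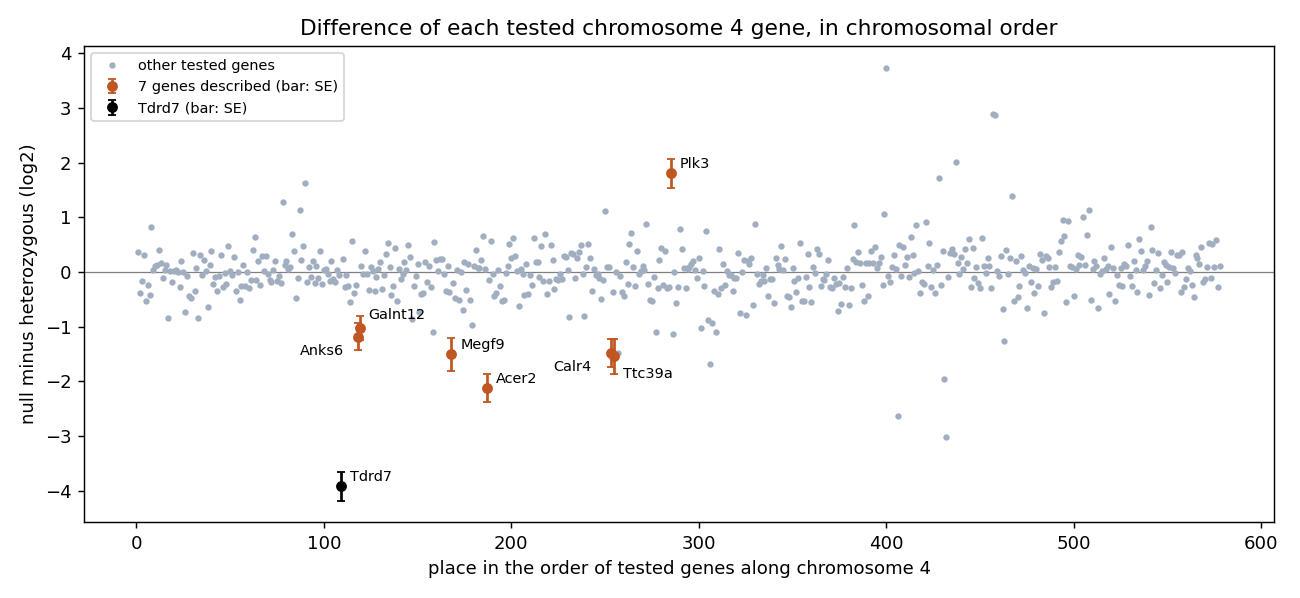
Null minus heterozygous log2 difference (vertical axis) of every tested gene of chromosome 4, 1 probe per gene, in the order of the chromosome (horizontal axis, place among tested genes). Grey points are other genes, orange points the 7 genes described and the black point Tdrd7, with SE bars. Anks6 is shown by its probe ILMN_2906688. The 7 genes lie in 5 places after Tdrd7, with Anks6 beside Galnt12 and Calr4 close to Ttc39a, and of the 161 grey points between the first and the last of them, 3 lie below −1 and 1 lies above 1.

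The nearest tested neighbours were not picked for a difference, so a contrast between them and the 7 genes follows from the selection. Tbc1d2, a Rab GTPase-activating protein before Anks6, was at 5.30, 5.51 and 5.51 in heterozygous and 5.15, 5.18 and 5.29 in null lenses, a difference of −0.23 ± 0.19 (SE, limma adjusted p = 0.803). Tgfbr1, a transforming growth factor beta receptor after Galnt12, differed by 0.12 ± 0.25 (adjusted p = 0.936). Around Megf9, the centrosomal protein gene Cdk5rap2 differed by −0.37 ± 0.26 (adjusted p = 0.745) and the corepressor gene Tle1 by −0.21 ± 0.23 (adjusted p = 0.857). The neighbours of Acer2 were Rps6, a ribosomal protein gene, at 0.05 ± 0.21 (adjusted p = 0.975) and Slc24a2, a sodium, calcium and potassium exchanger, at −0.15 ± 0.22 (adjusted p = 0.897). Eps15, between Calr4 and Ttc39a, was at 8.01, 8.13 and 7.997 in heterozygous and 8.24, 7.34 and 7.46 in null lenses, so null array 4 was the highest of all 6 and the other null arrays the lowest. The Eps15 difference was −0.37 ± 0.27 (adjusted p = 0.762), a fraction of those of Calr4 and Ttc39a on either side. Osbpl9, before Calr4, and Rnf11, after Ttc39a, differed by 0.10 ± 0.20 and 0.00 ± 0.20 (adjusted p = 0.930 and 0.996).

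Kif2c, the gene next after Plk3 and a kinesin that takes apart microtubules in mitosis, was the exception in size among the nearest neighbours. It was at 6.13, 7.28 and 6.35 in heterozygous and 5.43, 5.09 and 5.82 in null lenses, or −1.14 ± 0.33, opposite in sign to Plk3 and short of the threshold (adjusted p = 0.298 by limma). On the other side of Plk3, Eif2b3, a translation initiation factor subunit gene, differed by −0.28 ± 0.22 (adjusted p = 0.794). Over the 51 tested genes within 5 places of any of the 7, differences ran from −1.48 for Cdkn2c to 1.11 for Rab3b with a median of −0.08, and 0 passed in limma, with 5 at an unadjusted p under 0.05.

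Chromosome 4 as a whole, without the 7 genes and Tdrd7, had 68 of 570 tested genes at an unadjusted p under 0.05, or 11.9%, against 9.17% of all tested genes and 6.09% to 10.7% on the other 19 chromosomes. Its first part, before Tdrd7, held 6 of 108 (5.56%), the stretch from Anks6 to Plk3 18 of 161 (11.2%) and the part after Plk3 44 of 293. The 3 genes of chromosome 4 that passed an adjusted p of 0.05 besides Tdrd7, Acer2 and Plk3 were Snhg12, Catsper4 and Cnksr1, all after Plk3. With alternatives, Snhg12 passed in 12 of 15, Catsper4 in 6 of 15 and Cnksr1 in 6 of 14. The place of chromosome 4 at the top depended on the setting, since it came first in 5 of 15 alternatives and as low as place 7 without heterozygous array 1, with shares from 8.60% to 18.2%.

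Partners of the 7 genes in their families and pathways were taken from 8 lists. Over these lists, with 101 entries, 57 genes were measured and 0 passed in limma over all probes tested, with 5 at an unadjusted p under 0.05 (8.77%, near the 9.17% of all genes) and a median difference of 0.12. The largest differences of those named were Fos (1.83) and Cdkn1a (1.36), both given with the genes listed for Plk3. In O-glycan initiation, of 8 measured genes 3 were below and 5 above 0, and the enzymes related to Galnt12 with the smallest p were Galnt18 at 0.51 ± 0.23 (adjusted p = 0.581) and Galnt10 at −0.66 ± 0.45 (adjusted p = 0.743). C1galt1c1, the chaperone of the next enzyme of the pathway, gave 0.38 ± 0.23 (adjusted p = 0.714). Of 8 measured partners of Anks6 in the inversin compartment and among nephronophthisis proteins, 6 were below 0. Invs, which encodes inversin and also lies on chromosome 4, differed by −0.33 ± 0.24 (adjusted p = 0.766), Nphp4 by 0.40 ± 0.23 (adjusted p = 0.687) and Iqcb1 by −0.26 ± 0.22 (adjusted p = 0.804).

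Among 20 measured genes of ceramide and sphingosine metabolism, 14 were above and 6 below 0, with a median of 0.13. Acer3, another alkaline ceramidase, was at 8.89, 9.63 and 9.40 in heterozygous and 8.76, 8.44 and 8.38 in null lenses. Its groups did not overlap, as for Acer2, but the gap was small and −0.78 ± 0.25 fell short of the threshold (adjusted p = 0.367 by limma). Asah1, the acid ceramidase of lysosomes, lay the other way, at 10.16, 10.01 and 10.11 in heterozygous and 10.57, 10.60 and 10.51 in null lenses, a difference of 0.47 ± 0.19 (adjusted p = 0.524). The sphingosine 1-phosphate receptor S1pr5 was dim, at 4.62, 4.57 and 4.33 in heterozygous and 5.27, 4.69 and 5.04 in null lenses. Its difference was 0.50 ± 0.23 (adjusted p = 0.582 by limma). S1pr5 passed the detection filter only through the null group, detected in 3 of 3 null samples and 0 of 3 heterozygous ones.

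In the calnexin and calreticulin cycle, 6 of 8 measured genes were above 0, the opposite side from Calr4. Clgn, the testis calmegin, differed by 0.61 ± 0.36 (adjusted p = 0.696), and the glucosidase subunits Prkcsh and Ganab by 0.32 ± 0.27 and 0.35 ± 0.35 (adjusted p = 0.807 and 0.837). The only measured relatives of Megf9 and Ttc39a were Megf10 at 0.45 ± 0.22 (adjusted p = 0.619) and Ttc39c at 0.21 ± 0.23 (adjusted p = 0.854). Of the other polo-like kinases, Plk1 and Plk2 were measured and gave 0.15 ± 0.31 and 0.25 ± 0.25 (adjusted p = 0.934 and 0.836), both dim and not detected on all arrays.

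Genes that stress and growth factors are known to induce went both ways beside Plk3. Of 9 measured, 4 were above and 5 below 0, with a median of −0.03. Fos, an immediate early gene, was at 6.22, 4.26 and 4.42 in heterozygous and 4.97, 7.36 and 8.07 in null lenses, detected on 1 of 3 heterozygous arrays, and its groups overlapped (1.83 ± 0.76, limma adjusted p = 0.534). Cdkn1a, a cell cycle inhibitor induced by p53, was at 4.46, 4.27 and 4.34 in heterozygous lenses and at 4.76, 7.01 and 5.40 on null arrays 4, 5 and 6. Its difference was 1.36 ± 0.48 (adjusted p = 0.448 by limma). Cdkn1a passed the detection filter only through the null group, detected in 3 of 3 null samples and 0 of 3 heterozygous ones. Unlike Plk3, whose null values lay within 0.4 of each other, Cdkn1a was mainly high on null array 5. Gadd45b, a growth arrest gene, lay lower, by −0.72 ± 0.28 (adjusted p = 0.511).

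Outside these lists, the genes most like each of the 7 over the 6 arrays came from many chromosomes. By Pearson correlation of log2 values, those closest to Acer2 were Ednrb, an endothelin receptor of melanocytes and other cells (0.996), and Smap2, a gene of chromosome 4 (0.993). For Megf9 they were Vwc2l and Tent5c (0.997 and 0.994) and for Galnt12 Oaf and Figla (0.996 and 0.995). Anks6, taken by ILMN_2906688, was closest to Pax4 and Fam3b (0.998 and 0.996). Calr4 was closest to Ten1 and D830030K20Rik (0.995 and 0.994), Ttc39a to Phykpl and Anapc16 (0.991 and 0.989) and Plk3 to Tmem97 and Tbca (0.995 and 0.987). With 6 arrays in 2 groups such values are common, and from 21 genes for Plk3 to 87 for Anks6 had a correlation over 0.95.

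The size of the differences depended on the treatment of background, and the direction of 8 of the 9 probes did not turn in any of 15 alternatives. The genes were picked for this difference and the alternatives reuse the same arrays. A change of filter, or the replicate block, leaves a difference as it was by construction. The unturned direction is therefore a description and no separate support.

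**Figure D4:**
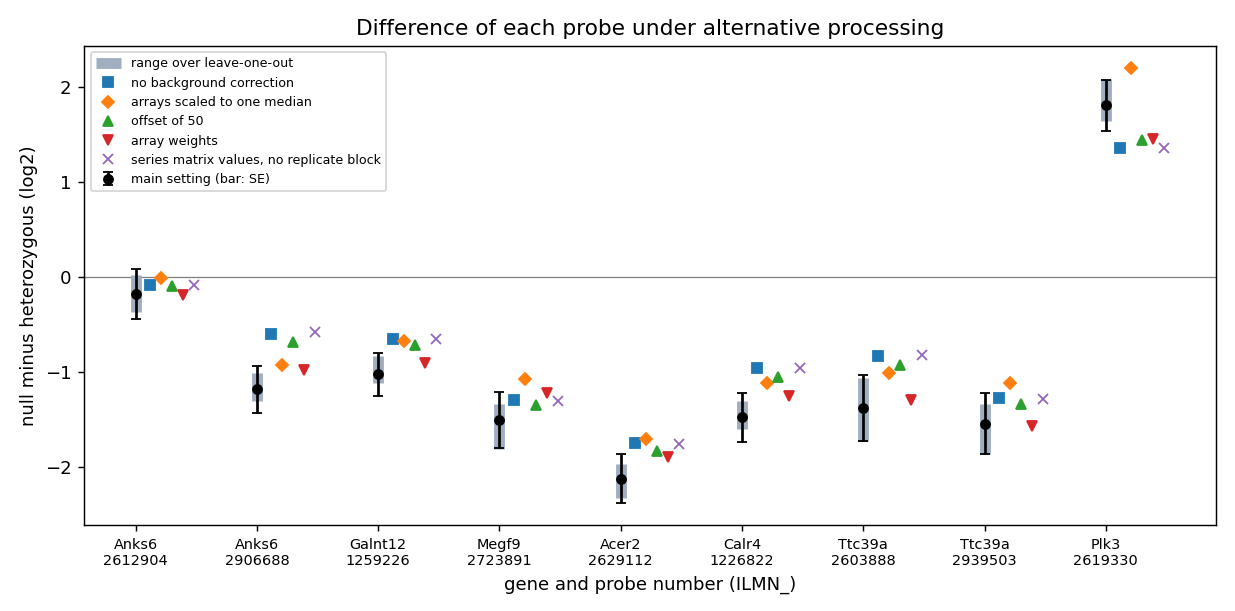
Null minus heterozygous log2 difference (vertical axis) of each tested probe (horizontal axis) in the main setting with its SE (black), under 5 other settings (coloured symbols) and as the range when each array is left out in turn (grey bars). All values lie on 1 side of 0 for every probe but Anks6 ILMN_2612904, and the settings without background correction lie closest to 0 for Galnt12, Calr4 and Anks6 ILMN_2906688, while Anks6 ILMN_2612904 is closest to 0 with arrays scaled to one median.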

How the data were processed

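Lens total RNA, extracted with a Qiagen RNeasy kit, was turned into biotinylated cRNA (Illumina TotalPrep) for the arrays, per the labels' protocols. No source used here names the scanner or its software. In the deposited raw table are linear intensities, neither background-subtracted nor normalized as far as the values show (medians 60.5 to 71.3), with a detection p-value beside each, per the file headers. The authors' series matrix holds rescaled intensities, by a method not given in the sources used here, and was an alternative source. On the tested probes of the 7 genes its quantile-normalized values lay close to the raw ones without background correction, in the same array order. For Acer2 they were 8.97, 9.38, 8.92, 7.66, 7.16 and 7.18 against 8.98, 9.39, 8.93, 7.67, 7.18 and 7.19. These settings are therefore not independent of each other. Raw columns name the group, not the replicate. Detection columns carry no sample name and were taken with the intensity column before them, with which their rank correlation was −0.998 to −0.993, against −0.816 to −0.741 with the others.

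Intensities were processed with neqc of limma 3.58.1 in R 4.3.3 (normexp with negative controls inferred from the detection p-values, offset 16, quantile normalization, log2). The 14902 probes that 3 or more of the 6 arrays detected (detection p under 0.05) were fitted, null minus heterozygous, with lmFit and eBayes and Benjamini-Hochberg adjustment, threshold 0.05. Of these, 27 passed, 7 higher and 20 lower. A gene is represented by its probe with the highest mean, and SE is the moderated standard error. Symbols came from the platform annotation, updated by Entrez identifier where RefSeq held it (34807 of 34885 probes with 1 gene, 18 with several, 10378 with none).

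The genes, lists and tests were chosen with earlier results of these data known. Named were all probes of the 7 genes, Tdrd7, their nearest tested neighbours, up to 3 genes per list by smallest p, genes between the 7 past the threshold, and the 2 most correlated genes each. Marker lists of muscle (mean 4.38 to 4.63 over all arrays in both groups), cornea and conjunctiva (5.34 to 6.33) and blood and vessels (4.60 to 5.24) were also summed.

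In the series matrix, whose columns alone carry the labels' replicate numbers, deviations from the group means were correlated between heterozygous and null samples. Same-numbered samples gave 0.11, 0.37 and 0.58 for numbers 1, 2 and 3. Samples of unlike number gave −0.45 to 0.16, and heterozygous sample 1 correlated more with null sample 3 (0.16) than with null sample 1. No label states a pairing, so pairing by number is an assumption, and the blocked fit that uses it is an alternative. On simulated data for this comparison (14902 probes, 200 changed), the fit recovered 16% of 100 probes changed by 1 log2 unit and 89% of 100 changed by 2, with 9 of 114 calls false. Alternatives changed background, normalization, offset, filter, weights, source and the arrays used. The number of arrays limits the precision.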

Additional observations from a re-analysis of the deposited data

How the results depend on the processing

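The number of probes past an adjusted p of 0.05, 27 in all, was 9 with no background correction, 3 with arrays scaled to one median (which moved the median of all probes to 0.28), 11 with an offset of 50, 0 with no filter on dim probes (limma, over 45281 probes), 266 with array weights, 9 on the series matrix values with no replicate block, 35 on the same values with the replicate block and 111 without heterozygous array 2 and null array 5. Leaving out 1 array gave 2 (without null array 6) to 30, with 7 without heterozygous array 1, 7 without heterozygous array 3 and 13 without null array 5. These fits also had fewer samples.

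Differences of the 7 genes shrank where background was kept, as an added constant does by construction. With no background correction they were −0.60 for Anks6 (ILMN_2906688), −0.66 for Galnt12, −1.75 for Acer2, −0.96 for Calr4 and 1.35 for Plk3, and with an offset of 50 −0.68 for Anks6, −0.72 for Galnt12 and −1.06 for Calr4. With one median they were −0.67 for Galnt12, −1.71 for Acer2, −1.12 for Calr4 and 2.20 for Plk3. On the series matrix values, with or without the replicate block, they were −0.58 for Anks6, −0.65 for Galnt12, −1.76 for Acer2, −0.96 for Calr4, −0.82 for Ttc39a (ILMN_2603888) and 1.36 for Plk3. Between same-numbered samples 1, 2 and 3 of those values, Acer2 differed by −1.31, −2.22 and −1.75 and Plk3 by 1.44, 1.71 and 0.91. The dimmer Ttc39a probe differed by −0.17, −1.08 and −1.22. Leaving out 1 array gave ranges of −2.33 to −1.97 for Acer2, −1.81 to −1.34 for Megf9, −1.60 to −1.31 for Calr4, −1.12 to −0.84 for Galnt12, −1.31 to −1.01 and −0.38 to 0.02 for Anks6 ILMN_2906688 and ILMN_2612904, −1.87 to −1.33 and −1.73 to −1.06 for the brighter and dimmer Ttc39a probe, and 1.64 to 2.08 for Plk3. The second Anks6 probe changed sign, to 0.024, without null array 5. Groups overlapped on 1 of 9 probes with no background correction or an offset of 50, and on 3 of 9 in raw values or with one median, an alternative added after the data were seen.

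Of the 161 genes between Anks6 and Plk3, array weights called 3 (Alad, Rab3b and Cdkn2c) and the fit without both arrays 2 (Alad and Rab3b). Over all 14902 probes tested, these fits called 266 and 111. On the series matrix values, Catsper4 and Cnksr1 passed with the replicate block (adjusted p = 0.046 and 0.032) and not without it (0.055 and 0.094), and the block moved no call of Tdrd7, Snhg12, Alad, Rab3b, Cdkn2c, the nearest neighbours or the named partners. With no filter Tdrd7 did not pass (adjusted p = 0.120), nor did Snhg12, Catsper4 and Cnksr1 (0.148, 0.185 and 0.277). Snhg12 also missed the threshold with one median (0.102) and without null array 6 (0.055). The nearest neighbours and the named partners stayed above it in every alternative that tested them. Dim probes such as those of Anks6 limit what the arrays can show.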
